A study of Mus musculus with 9 samples.

Results

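Hedgehog pathway transcripts were examined in activated hepatic stellate cells (aHSCs), the scar-forming cells of the injured liver. The genes were Smo, Ptch1, Gli1, Gli2, Gli3, Hhip, Sufu, Gas1 and Boc. They were taken as a named list, and every probe of an Illumina MouseWG-6 v2.0 bead array annotated with 1 of these symbols was included. That gave 18 probes for the 9 genes, out of 45281 probes for 30869 gene symbols on the array, and all 18 were matched by symbol. The array annotation places Smo on chromosome 6, Gli2 on chromosome 1, Gli1 on chromosome 10, Hhip on chromosome 8, Boc on chromosome 16, Sufu on chromosome 19, and Ptch1, Gli3 and Gas1 on chromosome 13.

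All samples are labelled as male C57/Bl6 of genotype WT1GFP/+, in which green fluorescent protein (GFP) replaces 1 copy of Wt1 as a reporter. The WT1-high group (GFP high, replicates 1, 8 and 29) and the WT1-intermediate group (labelled GFP low, replicates 1, 8 and 30) were isolated by density centrifugation from livers injured with carbon tetrachloride and sorted by flow cytometry. The study's methods give 8 weeks of injury with 2 injections per week and isolation 1 day after the last one. The WT1-negative group (replicates 3, 11 and 14) held GFP-negative cells after 7 days of activation in culture. Each group had 3 arrays, 1 per sample. The methods state 3 animals for the arrays of injured liver, so each animal contributed 1 sample to each of these groups. Every WT1-negative sample was cultured and every other sample came straight from injured liver. The methods describe activation in culture for cells isolated from uninjured livers. WT1 status, culture and injury of the animal therefore cannot be told apart in any comparison with that group. The methods give an age of 8 to 12 weeks at the start of injury, and they name both sexes for culture work, which the labels of the cultured samples do not.

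Hedgehog signalling is switched on when a ligand (Shh, Ihh or Dhh) binds the receptor Ptch1, which otherwise keeps the transmembrane protein Smo silent. Active Smo gathers in the primary cilium and releases the Gli transcription factors from Sufu. Gli2 is the main activator and Gli3 mostly a repressor, while Gli1, Ptch1 and Hhip are themselves induced by the pathway and are widely used as its readout. Gas1 and Boc are ligand co-receptors. In the liver, Hedgehog signalling is known for its part in the activation of stellate cells during fibrosis.

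The result turns on which probe of a gene gave a signal, so the probes are shown first. Array probes are 50 bases long. For Smo, a pair of probes overlapped in 46 bases, shown in capitals, and so they are not independent measurements.

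Smo ILMN_2741611: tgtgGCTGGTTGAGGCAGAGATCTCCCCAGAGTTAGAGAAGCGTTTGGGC
Smo ILMN_2741614: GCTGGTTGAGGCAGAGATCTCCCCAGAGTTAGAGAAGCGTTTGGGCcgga

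The other probes of a gene shared no run longer than 7 bases with each other. The first 30 bases of the remaining Smo probe and of the Gli2, Gli3 and Ptch1 probes are given below, because for each of the last 3 genes 1 probe passed the detection filter and another did not. No part of these is in capitals.

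Smo ILMN_2986978, detected on 9 arrays: atccagtggggaggaccctctgacttaagg
Gli2 ILMN_2522863, detected on 9 arrays: ctggctcttgtggtgtggactcattgcctg
Gli2 ILMN_2668750, detected on 0 arrays: ctgcccggcgcccgagaggccacctgcatg
Gli3 ILMN_2449396, detected on 9 arrays: acgtagagttgggatgtgatggcctcgggc
Gli3 ILMN_1215183, detected on 1 array: catgggcttcagtcagcaagacaggaaagc
Ptch1 ILMN_2460224, detected on 9 arrays: atcatcatgagtcccatcagccaaggcagg
Ptch1 ILMN_1248463, detected on 0 arrays: tgtcaggtgtgagaggagggactcaaaggt

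A probe counted as detected on an array where its detection p was under 0.05, and a probe was tested where at least 3 of the 9 arrays detected it. By that filter 8 of the 18 probes, from 5 genes, were kept (3 of Smo, 2 of Sufu, and 1 each of Gli2, Gli3 and Ptch1), against 20573 of all 45281 probes. The other 10 probes were below it, and 8 of those were detected on no array. A gene with several tested probes is represented by the one with the highest mean level, called its leading probe. Levels are log2 intensities after background correction on negative control probes and quantile normalisation. Differences come from a linear model over all 9 arrays (limma) with Benjamini-Hochberg adjustment over the 20573 probes, and "called" means an adjusted p under 0.05.

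Between 38.1% and 43.7% of probes were detected on each array, and the mean intensity of an array ran from 147.5 to 288.9. The labelled cell type was checked against stellate cell markers. Of 12 such genes, Lrat, Rgs5, Lhx2 and Vipr1 did not pass the filter, and the other 8 summed to intensities of 3105 to 4701 (WT1-high), 2498 to 3558 (WT1-intermediate) and 1063 to 1462 (WT1-negative). Ecm1 made up most of that sum, with log2 levels of 11.04 to 11.91 in samples from liver and 9.25 to 9.86 in WT1-negative samples. The called stellate markers went both ways against WT1-negative cells, with Hand2, Colec11 and Ecm1 higher in both groups from liver, Ngfr, Pdgfrb and Hgf lower in WT1-high, and Des and Ngfr lower in WT1-intermediate. All 11 mesothelial markers on the array were tested, and all 11 were called higher in each group from liver than in WT1-negative cells. Their summed intensity ran from 32460 to 39990 for WT1-high, from 19770 to 28290 for WT1-intermediate and from 285.3 to 325.5 for WT1-negative arrays. Wt1 itself has no probe under that symbol, so the sort could not be checked on its own transcript. Macrophage markers were bright in the WT1-negative samples, where the 11 tested genes summed to intensities of 36630 to 40060, against 14330 to 24760 (WT1-intermediate) and 4651 to 7964 (WT1-high). The called macrophage markers went both ways, with 1 higher and 6 lower in WT1-high, and 4 higher and 3 lower in WT1-intermediate. Cd68, C1qa and C1qb were called lower in both groups from liver, and Emr1, Csf1r and Lyz2 in WT1-high only. Clec4f was called higher in both groups, and Lyz1, Marco and Mpeg1 in WT1-intermediate only. Other lists differed from WT1-negative cells as well. Of 10 portal and adventitial fibroblast markers, 7 were called higher and 1 lower in each group from liver. All 5 tested T and NK cell markers were higher in both. Of 4 tested hepatocyte markers, 3 were higher in WT1-high and 2 in WT1-intermediate, while endothelial markers went both ways. Over all tested probes 26.5% and 24.4% were called higher. These marker differences stand beside the Smo, Gli2 and Gli3 differences below. The part of RNA from these cell types in the Hedgehog differences was not tested.

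**Figure D1:**
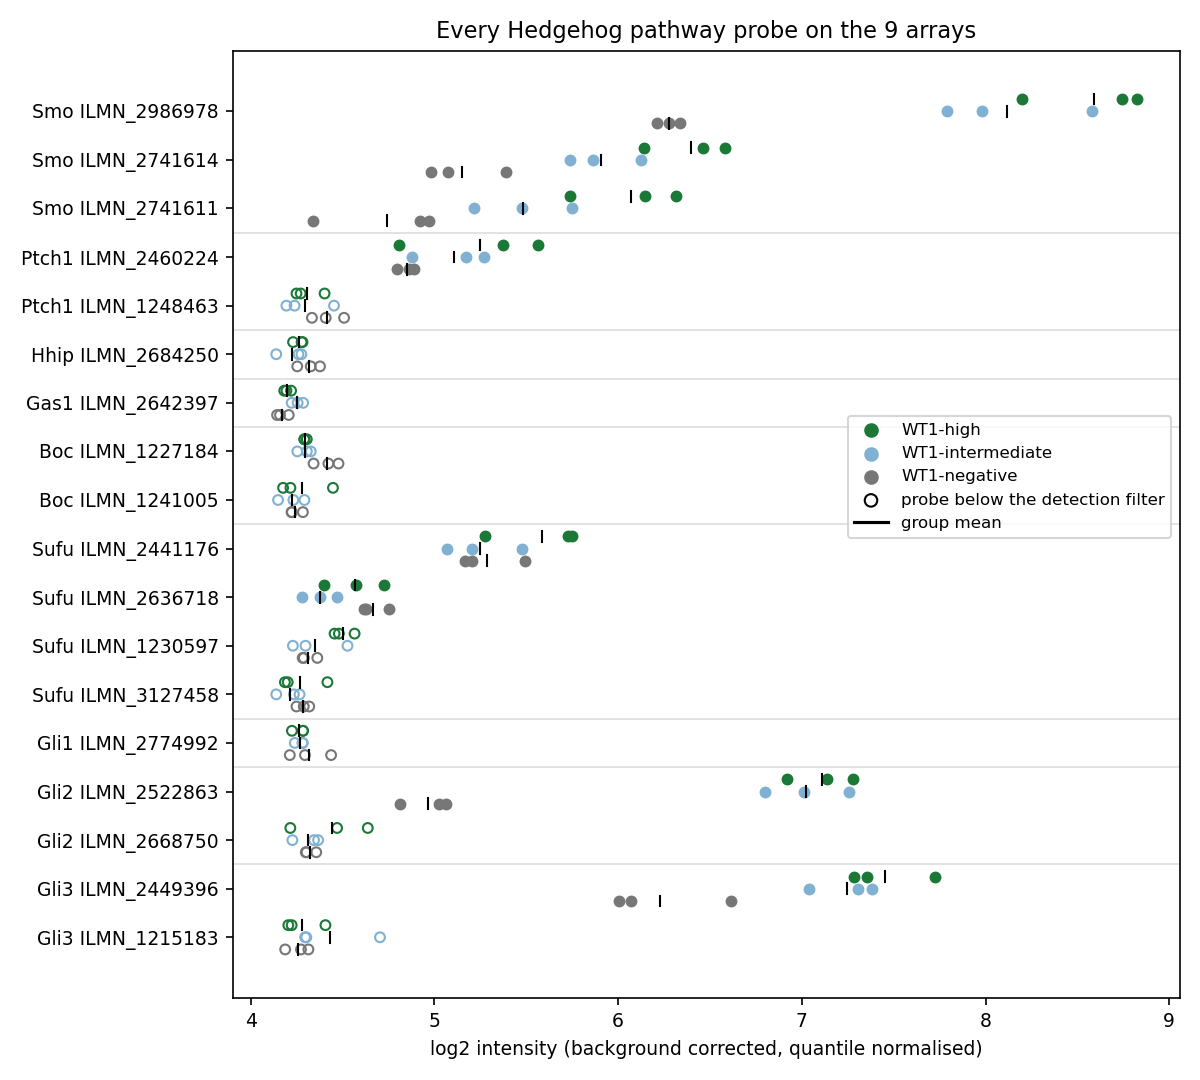
Each row is 1 probe, each point 1 array, and the horizontal axis is the log2 intensity. Filled points belong to the 8 probes that passed the detection filter, open points to the 10 that did not, and black ticks are group means (n = 3). The Smo, Gli2 and Gli3 leading probes in liver-derived samples lie to the right of all WT1-negative samples, and the open points lie between 4.14 and 4.70.

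Smo, the signal transducer at the membrane, was higher in both groups from injured liver than in WT1-negative cells. On the leading probe the WT1-high levels were 8.82, 8.75 and 8.20, the WT1-intermediate levels were 7.98, 8.58 and 7.79, and the WT1-negative levels were 6.28, 6.34 and 6.21 (log2 intensity, replicates in the order listed above). No sample from liver overlapped a WT1-negative sample, while the 2 groups from liver overlapped each other. WT1-high exceeded WT1-negative by 2.31 on the log2 scale (SE 0.224, n = 3 per group, 4.97-fold, adjusted p = 5.8e-06, limma). WT1-intermediate exceeded WT1-negative by 1.84 (SE 0.224, 3.58-fold, adjusted p = 4e-05, limma). The overlapping pair of Smo probes moved the same way with smaller differences. For ILMN_2741614 they were 1.25 (SE 0.178) for WT1-high and 0.76 (SE 0.178) for WT1-intermediate, and all 3 Smo probes were called in both comparisons. In bulk samples such as these, fewer cells that express a gene and less of its RNA in each cell cannot be told apart.

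Gli2, the main activator of the pathway's target genes, separated the groups as clearly. Its WT1-high levels were 7.14, 7.28 and 6.92, its WT1-intermediate levels 6.80, 7.26 and 7.01, and its WT1-negative levels 5.06, 4.81 and 5.03. The lowest sample from liver lay above the highest WT1-negative sample. Gli2 exceeded its WT1-negative mean by 2.14 among WT1-high samples (SE 0.167, 4.42-fold, adjusted p = 1.1e-06, limma) and by 2.06 among WT1-intermediate samples (SE 0.167, 4.16-fold, adjusted p = 1.9e-06, limma). The other Gli2 probe was detected on no array, with levels from 4.22 to 4.64. The Gli2 difference therefore rests on 1 of its 2 probes.

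Gli3, known mainly as a repressor once it is cut to its short form, was also higher in samples from liver, by less than Gli2. Its WT1-high arrays read 7.36, 7.72 and 7.28, its WT1-intermediate arrays 7.04, 7.31 and 7.38, and its WT1-negative arrays 6.07, 6.01 and 6.62. The WT1-negative sample of replicate 14 was the highest of its group and still lay below every sample from liver. WT1-high exceeded WT1-negative by 1.22 (SE 0.199, 2.33-fold, adjusted p = 0.00029, limma), and WT1-intermediate did so by 1.01 (SE 0.199, 2.02-fold, adjusted p = 0.0012, limma). With arrays scaled to a common median in place of quantile normalisation, the second Gli3 difference was 0.47 with an adjusted p of 0.20 (limma) and was no longer called. The other Gli3 probe was detected on 1 array, that of WT1-intermediate replicate 1 (level 4.70).

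Ptch1, the Hedgehog receptor and itself a pathway target, did not pass the test in any comparison. On its leading probe the WT1-high arrays read 5.56, 5.37 and 4.81, the WT1-intermediate arrays 5.17, 5.27 and 4.88, and the WT1-negative arrays 4.86, 4.89 and 4.79. WT1-high replicate 29 and WT1-intermediate replicate 30 lay within the WT1-negative range of 4.79 to 4.89, and the other samples from liver lay above it. The difference of WT1-high from WT1-negative was 0.40 (95% confidence interval -0.04 to 0.83, adjusted p = 0.10, limma), and that of WT1-intermediate was 0.26 (-0.18 to 0.69, adjusted p = 0.28, limma). This probe carries no RefSeq accession in the array annotation. The Ptch1 probe that does carry one was detected on no array (levels 4.19 to 4.51). The difference of WT1-high was called without WT1-high replicate 29, at 0.62 with an adjusted p of 0.011 (limma).

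Sufu, the cytoplasmic inhibitor that holds Gli proteins, likewise passed no test. Its leading probe read 5.75, 5.73 and 5.28 on the WT1-high arrays, 5.07, 5.48 and 5.20 on the WT1-intermediate arrays, and 5.49, 5.20 and 5.17 on the WT1-negative arrays. These ranges overlapped. The difference of WT1-high from WT1-negative was 0.30 (95% confidence interval -0.10 to 0.69, adjusted p = 0.18, limma), and that of WT1-intermediate was -0.04 (-0.44 to 0.36, adjusted p = 0.87, limma). The leading Sufu probe carries no RefSeq accession in the array annotation. A Sufu probe that does carry one, ILMN_3127458, was detected on no array. The other tested Sufu probe, which also carries one, was detected on 5 arrays, none of them WT1-intermediate. It stood at least 1.08-fold lower in WT1-intermediate than in WT1-negative samples, a bound taken because the dimmer group lies at background (adjusted p = 0.10, limma). Against WT1-negative cells the Sufu intervals leave room for a difference of up to 0.69 on the leading probe.

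**Figure D2:**
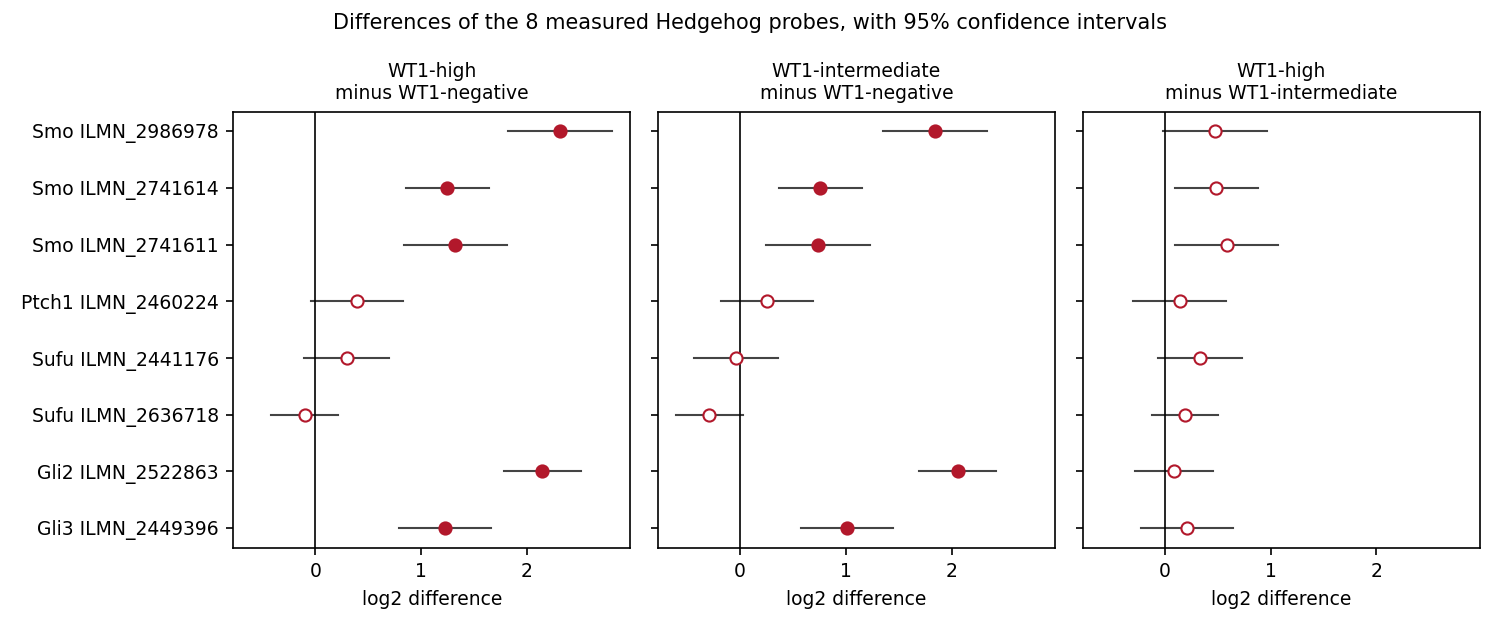
Points are log2 differences between group means for the 8 tested probes, bars are 95% confidence intervals from limma, and filled points were called at an adjusted p under 0.05. Against WT1-negative cells the 5 Smo, Gli2 and Gli3 probes are filled in both comparisons, and between WT1-high and WT1-intermediate none is filled.

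Counted by leading probe, 3 of the 5 tested genes were called higher and 0 lower in WT1-high than in WT1-negative cells, where 59.6% of all tested probes were called and 26.5% were called higher. For WT1-intermediate the count was also 3 higher and 0 lower, where 58.0% of all probes were called and 24.4% were called higher. In the lower direction the shares of all probes were 33.1% and 33.6%, and an unadjusted p under 0.05 was reached by 63.7% and 62.6%. The samples of the groups did not overlap for 3 of the 5 genes in either comparison, where 68.4% (WT1-high) and 65.5% (WT1-intermediate) of all probes did not overlap, and 30.7% and 28.0% had the liver group wholly above. A call against the WT1-negative group was thus the common case on these arrays. Over the 5 genes the median difference was 1.22 (WT1-high) and 1.01 (WT1-intermediate), beside -0.10 and -0.13 over all tested probes. These 2 comparisons share their WT1-negative samples. The 5 genes were the ones bright enough to test, and the count describes only them. Under cyclic loess normalisation, or with array weights, 5 of the 5 were called higher in WT1-high than in WT1-negative cells. In the former, Ptch1 differed by 0.64 (adjusted p = 0.011, limma) and Sufu by 0.52 (adjusted p = 0.023, limma). Ptch1 was also called higher in WT1-intermediate cells there, by 0.49 (adjusted p = 0.040, limma).

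Between the WT1-high and WT1-intermediate groups, sorted from the same livers, 0 of the 5 leading probes were called, and 0 had an unadjusted p under 0.05, against 17.2% of all probes. The samples overlapped for all 5, while 20.1% of all probes did not overlap and 11.5% had WT1-high wholly above. Among all probes 3.55% were called, 0.904% higher and 2.64% lower in WT1-high. With the animal as a replicate block the number of called probes went from 730 to 1520 (fixed block over the samples from liver), 1752 or 1796 (random block, by label or column numbers), and the count for the Hedgehog genes stayed at 0. Median scaling raised the number called to 2164 and turned the split, from 74.5% of calls lower in WT1-high to 6.47%. Under that scaling the median of all probes differed by 0.40 between these groups.

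Smo had the largest of the 5 differences between these groups, 0.47 higher in WT1-high (95% confidence interval -0.02 to 0.96, adjusted p = 0.31, limma). Within pairs from 1 animal the leading probe was higher in WT1-high by 0.84, 0.17 and 0.41 for replicates 1, 8 and 29 with 30, so that all 3 pairs pointed the same way. The overlapping pair of Smo probes had unadjusted p values of 0.023 (ILMN_2741611) and 0.019 (ILMN_2741614) in the limma fit, with adjusted p of 0.19 and 0.18. They were also higher in 3 of 3 pairs, and for ILMN_2741614 the samples of the groups did not overlap. Sufu was higher in 3 of 3 pairs on its leading probe (0.68, 0.25 and 0.07), with a fitted difference of 0.33 (-0.07 to 0.73, adjusted p = 0.39, limma).

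For Gli2 the difference was 0.09 (95% confidence interval -0.28 to 0.46, adjusted p = 0.84, limma), for Gli3 0.21 (-0.23 to 0.65, adjusted p = 0.64, limma) and for Ptch1 0.14 (-0.29 to 0.58, adjusted p = 0.77, limma). Each of these 3 was higher in 2 of 3 pairs and lower in the pair of replicates 29 and 30. The order of the group means was WT1-high, WT1-intermediate, WT1-negative for Smo, Gli2, Gli3 and Ptch1, but neighbours in that order differed beyond their spread only between WT1-intermediate and WT1-negative, for Smo, Gli2 and Gli3. For Sufu the WT1-intermediate mean was the lowest.

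**Figure D3:**
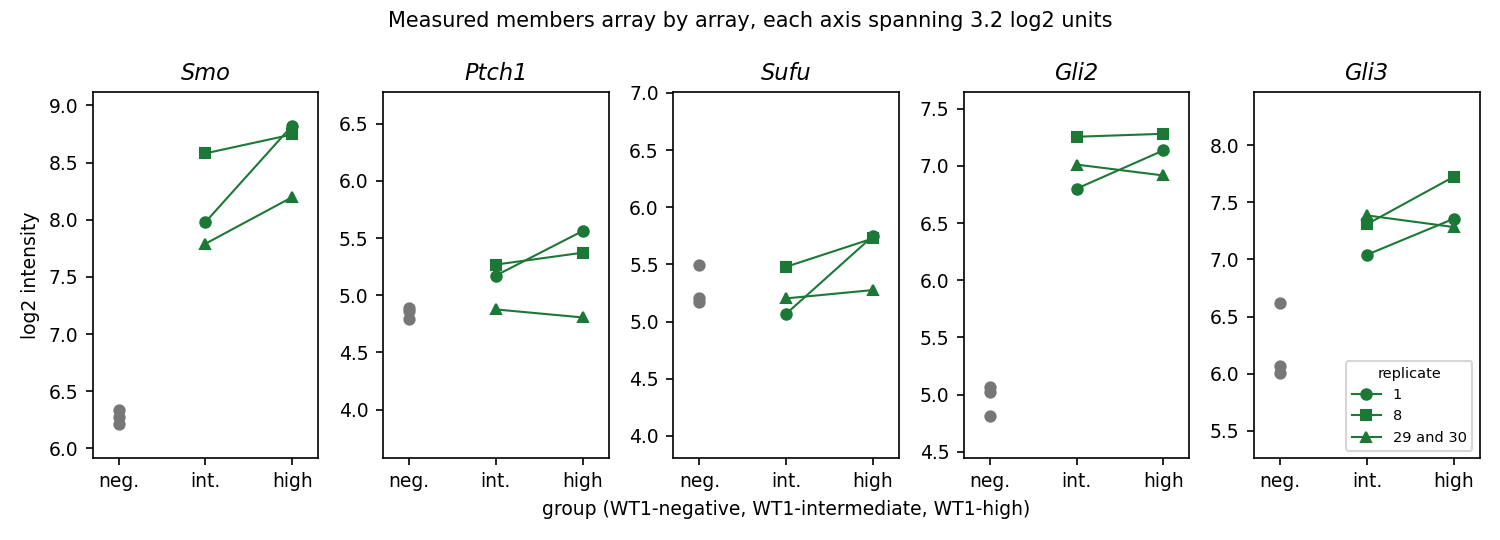
Levels of the 5 leading probes on each array (log2 intensity), with grey points for WT1-negative samples and lines joining the WT1-intermediate and WT1-high samples of 1 animal. Smo and Sufu lines rise in 3 of 3 pairs, and the Gli2, Gli3 and Ptch1 lines fall in the pair of replicates 29 and 30.

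The 4 remaining genes gave no signal above background. Gli1, the most direct transcriptional readout of the pathway, had 1 probe, with levels from 4.21 to 4.44 and a lowest detection p of 0.105. Hhip, a ligand-binding decoy induced by the pathway, ranged from 4.14 to 4.38. Gas1 ranged from 4.14 to 4.29. The Boc probes ranged from 4.25 to 4.48 and from 4.15 to 4.45. The dimmest detected probe on an array lay between 4.48 and 4.65, so these values lie at background and give no order of groups. They do not bound the transcripts, since Gli2, Gli3 and Ptch1 each had a tested probe beside one that failed the filter. On the scanner's scale the Gli1 probe read 77.1 to 97.5, where the median negative control of an array read 76.3 to 93.6. The bases G and C made up 34% of the Gli1 probe, 28% of the Gas1 probe, 18% of 1 Boc probe and 56% of the other, and 50% of the Hhip probe, against 54% to 58% in the 8 tested probes. The part of probe composition in detection was not tested.

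The promoters of these genes were read for a pair of sequence motifs, because Gli factors act on their own pathway's genes and the cells were sorted on a Wt1 reporter. RefSeq windows (build GRCm38.p6, 250 bases before to 50 after the gene start) covered 7 of the 9 genes, without Gli1 and Boc. The Gli consensus GACCACCCA was in 0 of the 7 windows on either strand, and in 0.253% of all 32851 windows. With so low a share, 0 of 7 does not set these genes apart. The motif GCGGGGGCG, known to be bound by the zinc finger proteins Egr1 and WT1, was in 2 of the 7 windows and in 2.91% of all windows. The stretches are printed with the motif in capitals, on the gene's own strand.

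Gli2, chr1:119053707-119053736, minus strand: agctcagcgcGCGGGGGCGctgcgccatcc
Hhip, chr8:80058085-80058114, minus strand: cccatcccagGCGGGGGCGcgcgagcggcg

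The motif began 107 bases before the gene start in Gli2 and 96 bases before it in Hhip. Gli2 was among the called genes and Hhip was not detected, and the Smo and Gli3 windows held neither motif. Binding was not measured here.

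Other genes of the pathway were taken from 5 lists of 65 genes in all. Among ligands and genes for their release, 2 of 9 were tested. Shh was detected on 0 arrays (levels 4.15 to 4.29 on its brighter probe), Ihh on 2 and Dhh on 2, and none of the ligands passed the filter. Disp1, which frees lipid-bound ligand from the producing cell, was called higher in WT1-high by 1.37 (SE 0.174, adjusted p = 4.6e-05, limma) and in WT1-intermediate by 0.89 (SE 0.174, adjusted p = 0.0011, limma) than in WT1-negative cells. Its levels were 7.41 to 8.22 in the 6 samples from liver and 6.29 to 6.78 in WT1-negative samples. Under median scaling the WT1-intermediate difference was 0.31 (adjusted p = 0.37, limma). Hhat, the enzyme that attaches palmitate to ligands, was not called on its leading probe, and 1 of its other probes was called lower, by -0.55 and -0.61 (SE 0.165 each).

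Genes for ligand reception and the ciliary membrane showed the largest differences. Of 11 genes, 8 were tested. By leading probe, 5 were called higher and 2 lower in WT1-high than in WT1-negative cells. In WT1-intermediate 5 were called higher and 1 lower, and the medians were 2.14 and 1.74. Over all probes 26.5% and 24.4% were called higher, and 33.1% and 33.6% lower. Gpc3, a glypican that competes with Ptch1 for ligand, was higher by 5.08 in WT1-high (SE 0.235, adjusted p = 2.3e-08, limma) and by 4.97 in WT1-intermediate (SE 0.235, adjusted p = 3.6e-08, limma). Its levels were 10.76 to 11.57 in samples from liver and 5.95 to 6.50 in WT1-negative samples.

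Cdon, a co-receptor of the same family as Boc, was higher by 3.40 (SE 0.237) in WT1-high and by 3.24 (SE 0.237) in WT1-intermediate. Its levels were 8.42 to 9.29 in samples from liver against 5.39 to 5.94 in WT1-negative ones. A dimmer Cdon probe, undetected on the WT1-negative arrays, differed by at least 1.09-fold and 1.10-fold and was called in neither (adjusted p = 0.060 and 0.053, limma). Lrp2, an endocytic receptor for Shh, was higher by 3.37 and 2.84 (SE 0.294 each) on its leading probe. A dimmer Lrp2 probe was called in both comparisons too (adjusted p = 0.010 and 0.047, limma), at no more than a bound of at least 1.12-fold for WT1-high.

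Evc and Evc2, which bind Smo at the base of the cilium, were both called higher. Evc exceeded WT1-negative by 2.38 (SE 0.254) in WT1-high and 1.95 (SE 0.254) in WT1-intermediate, and Evc2 by 1.90 and 1.53 (SE 0.207 each). Gpc3, Cdon, Lrp2, Evc and Evc2 kept both calls without background correction, with the larger offset, under median scaling, under cyclic loess and without any 1 array. Arrb2, a beta-arrestin, was called lower by -2.10 (SE 0.201) and -1.29 (SE 0.201). Arrb1 was not called on its leading probe, but its other tested probes, all dimmer, were called lower in both comparisons. They were at least 1.23-fold to 1.62-fold lower in WT1-high, where no array detected them. In WT1-intermediate ILMN_1229853 was lower by -0.60, and the others at least 1.31-fold and 1.22-fold. Adrbk1, a kinase that phosphorylates Smo, was called lower in WT1-high by its leading probe (-0.68, SE 0.209), while its other probe, undetected on the WT1-negative arrays, was called at least 2.3-fold higher, so its direction is uncertain.

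**Figure D4:**
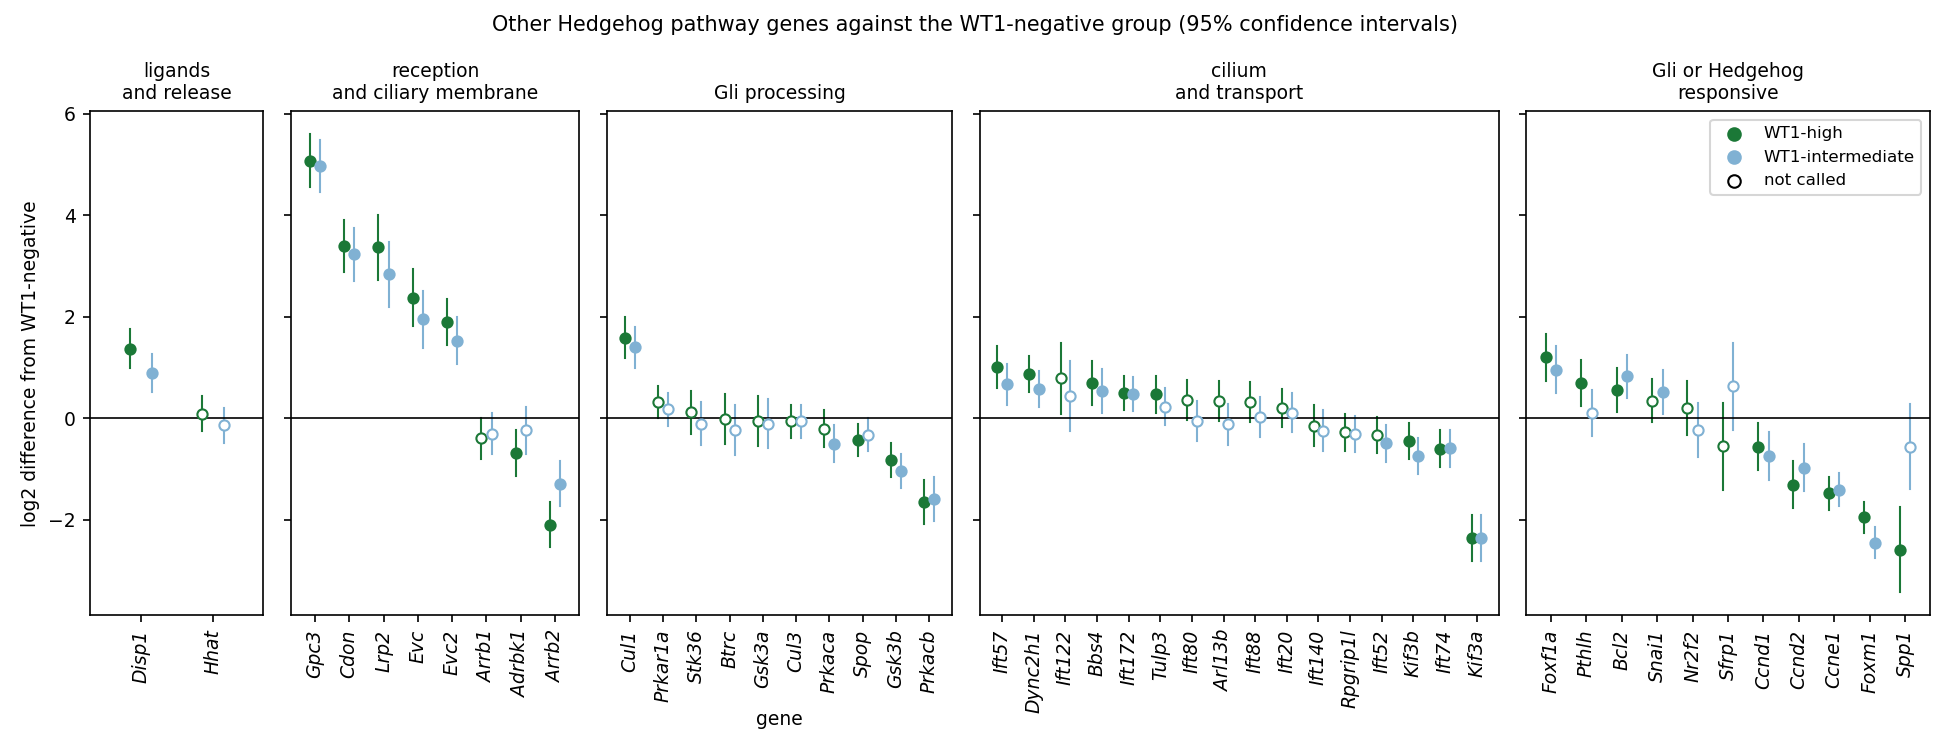
Each pair of points is 1 tested gene, with its log2 difference from the WT1-negative group (n = 3 per group) in WT1-high and WT1-intermediate cells, 95% confidence intervals from limma as bars, and open points where it was not called. Gpc3, Cdon, Lrp2, Evc and Evc2 lie furthest above 0, and Kif3a, Foxm1, Spp1, Arrb2 and Prkacb are among the lowest.

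Among 10 tested genes of 13 that process or degrade Gli proteins, 1 was called higher and 3 lower in each comparison, with medians of -0.06 and -0.17. These 4 of 10 stand beside 59.6% (WT1-high) and 58.0% (WT1-intermediate) of all probes called. Cul1, a scaffold of the ligase that leads to Gli cleavage, was higher by 1.59 (SE 0.182) in WT1-high and 1.40 (SE 0.182) in WT1-intermediate, and a second Cul1 probe was called in WT1-intermediate only (0.50 and 0.84, SE 0.207 each). Prkacb, a catalytic subunit of the kinase that marks Gli proteins for cleavage, was lower by -1.66 and -1.59 (SE 0.194 each). Gsk3b, which acts after that kinase, was lower by -0.83 and -1.04 (SE 0.155 each). The third lower gene was Spop in WT1-high (-0.43) and Prkaca in WT1-intermediate (-0.51). The Spop call was lost under median scaling (adjusted p = 0.090, limma) and without WT1-high replicate 29 or WT1-negative replicate 11 or 14 (0.086, 0.084 and 0.054). The Prkaca call was lost without WT1-intermediate replicate 1 or 30 or WT1-negative replicate 11 or 14 (adjusted p = 0.064, 0.062, 0.075 and 0.055, limma), and a second Prkaca probe was not called.

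Genes of the cilium and its transport machinery were called in both directions. By leading probe, of 16 tested genes among 18, 5 were called higher and 3 lower in WT1-high, and 4 higher and 4 lower in WT1-intermediate. That is 8 of 16 each time, beside 59.6% and 58.0% of all probes called. Some genes not called this way had other probes that were. For Ift20, a probe was called higher (2.385 and 2.24) and another lower (-0.51 and -0.78). For Arl13b, a dimmer probe was called higher in both comparisons. For Ift140, a probe was called lower in both and another higher in WT1-intermediate. Under median scaling the counts were 3 higher and 1 lower, and 1 higher and 4 lower, and under cyclic loess 9 higher and 2 lower, and 5 higher and 3 lower. Kif3a, a motor subunit for transport into the cilium, was lower by -2.36 in both groups (SE 0.208, adjusted p = 3e-06 and 3.6e-06, limma). Its levels were 7.28 to 7.85 in samples from liver and 9.76 to 10.28 in WT1-negative samples. Ift57, a transport subunit, was undetected on all WT1-negative arrays. Its WT1-high level exceeded theirs at least 1.5-fold, and its WT1-intermediate level at least 1.19-fold (adjusted p = 0.00079 and 0.010, limma). Kif3b, the partner of Kif3a, was lower by -0.44 and -0.74 on its leading probe. The former was not called under median scaling or cyclic loess (adjusted p = 0.14 and 0.070, limma). It was also not called without WT1-high replicate 1 or 29 or WT1-negative replicate 3 or 14 (adjusted p = 0.079, 0.096, 0.14 and 0.056, limma). A second, dimmer Kif3b probe was called lower in both comparisons, by -1.11 and -1.23 (SE 0.164 each). Dync2h1, the motor for the return path, was higher by 0.87 and 0.58 (SE 0.163 each), the latter at 0.24 and not called under median scaling (adjusted p = 0.49, limma).

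Among genes widely listed as responsive to Gli or Hedgehog, 11 of 14 were tested. In WT1-high 3 were called higher and 5 lower, and in WT1-intermediate 3 higher and 4 lower, with medians of -0.55 and -0.24. Over all probes 26.5% and 24.4% were called higher, and 33.1% and 33.6% lower. Under median scaling the counts were 2 higher and 4 lower, and 0 higher and 4 lower. Foxf1a, a mesenchymal forkhead factor, was higher by 1.20 and 0.96 (SE 0.208 each), with levels of 5.48 to 6.20 in samples from liver and 4.67 to 4.89 in WT1-negative samples. Under median scaling the latter difference was 0.66 and missed the threshold (adjusted p = 0.058, limma). Bcl2, an inhibitor of apoptosis, was higher by 0.56 and 0.83 (SE 0.194 each) on its leading probe, and a second Bcl2 probe gave -0.41 and 0.09 and was not called. Both Bcl2 calls were lost under median scaling (adjusted p = 0.069 and 0.20, limma), and the first also without WT1-high replicate 8 or 29 or WT1-negative replicate 11 (adjusted p = 0.080, 0.080 and 0.11, limma).

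The lower genes of this list were largely cell cycle genes. Spp1, which is not among those, had the largest lower difference in WT1-high, at -2.59 (SE 0.382, adjusted p = 0.00014, limma). In WT1-intermediate Spp1 was not called (-0.56, adjusted p = 0.23, limma). Without WT1-intermediate replicate 1 it was called there, at -1.05 (adjusted p = 0.0085, limma). Foxm1, a factor of the G2 phase, was lower on its leading probe by -1.96 in WT1-high (SE 0.137), and at least 4.84-fold lower in WT1-intermediate, where no array detected that probe. A second Foxm1 probe was lower by -1.82 and -2.08 (SE 0.175 each). Ccne1 was at least 2.49-fold lower in WT1-high, where no array detected it, and lower by -1.41 (SE 0.148) in WT1-intermediate. Ccnd2 was lower by -1.31 and -0.98 (SE 0.212 each) on its leading probe. A second Ccnd2 probe was also called lower in both comparisons, by -1.25 and -0.93 (SE 0.176 each). The last of its 3 tested probes, undetected on the WT1-negative arrays, was at least 1.08-fold and 1.39-fold higher without being called. Cell cycle markers outside the pathway moved with Foxm1, Ccne1 and Ccnd2. All 5 tested markers were called lower in both groups from liver, with summed intensities of 145.5 to 290.4 (WT1-high), 126.6 to 175.5 (WT1-intermediate) and 1451 to 1791 (WT1-negative). Their part in the result was not tested.

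Between the groups from liver, 3.55% of all probes were called, 0.904% higher and 2.64% lower in WT1-high. Of the 47 genes tested on these 5 lists, 1 was called in the fit without the animal as a block, namely Spp1, a secreted matrix protein. It was lower in WT1-high by -2.03 (SE 0.382, adjusted p = 0.016, limma), with levels of 9.72, 10.10 and 10.16 against 13.03, 11.00 and 12.04. The call was lost without WT1-high replicate 1 or 8 and without background correction (adjusted p = 0.051, 0.058 and 0.051, limma). With the replicate block Arrb2 was called lower in WT1-high as well, by -0.81 to -0.82 (adjusted p = 0.010 to 0.014 over the 3 blocked fits, limma), with levels of 7.78, 7.54 and 7.44 against 8.83, 8.21 and 8.14. Sfrp1, a secreted Wnt antagonist, was also called lower in each blocked fit, by -1.18 to -1.24 (adjusted p = 0.0029 to 0.032, limma). Both random blocks called Foxm1 higher (adjusted p = 0.022 and 0.024, limma), at least 1.24-fold since WT1-intermediate arrays did not detect its leading probe, and the fixed block did not. Pthlh, a parathyroid hormone relative, was called higher in 1 of the 3 blocked fits (0.59, adjusted p = 0.048, limma) and on leaving out WT1-high replicate 1 (0.81, adjusted p = 0.043, limma). Leaving out WT1-intermediate replicate 30 also gave a call for Arrb2 (-0.93, adjusted p = 0.042, limma). Other scalings added calls between these groups, with Disp1 (1.06) and Cul1 (0.79) higher in WT1-high under median scaling (adjusted p = 0.042 and 0.049, limma) and Arrb2 lower under cyclic loess (-0.82, adjusted p = 0.042, limma). Macrophage markers moved with Spp1: 7 of 11 were called lower in WT1-high than in WT1-intermediate, beside 2.64% of all probes. Their summed intensities are given above. Spp1 is known to be made by macrophages as well as by stellate cells. The part of macrophage RNA in the Spp1 difference was not tested.

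For each tested member the 3 other genes with the most similar pattern over the 9 arrays are given by Pearson correlation of log2 levels. The arrays share their 3 groups, so these values mainly reflect the group differences and carry no test. Smo was most like Ptprd (r = 0.996), Ptprf (0.996) and Ky (0.995). Ptprd, a receptor phosphatase, averaged 7.39 (WT1-high), 6.88 (WT1-intermediate) and 4.43 (WT1-negative). Gli2 was most like LOC100045680 (0.998), Sulf1 (0.997) and Atp10d (0.997). Sulf1, which edits heparan sulphate on the cell surface, had means of 9.98, 9.89 and 6.22. Gli3 was most like Dcn (0.989), Mxra8 (0.986) and Stat3 (0.981). Dcn, the matrix proteoglycan decorin, averaged 9.11, 8.56 and 5.54 in the same order. Ptch1 was most like C730004I03Rik (0.977), AI851790 (0.965) and Fgf8 (0.957), and Sufu like 3110001A05Rik (0.922), Scaper (0.915) and Elmo3 (0.899).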

How the data were processed

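Per the file headers and the study's methods, the authors exported unnormalised summary probe profiles from BeadStudio, and the deposited values are linear intensities with a detection p-value for each probe and array. The deposited tables of the 6 arrays from liver and the 3 of cultured cells were joined by probe. The column numbered 29 in the GFP low group was taken as the sample the labels number 30, since its values equal those of that sample in the deposited joined table.

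Intensities were background corrected on the 936 negative control probes (neqc, offset 16), quantile normalised and log2 transformed in limma 3.58.1 under R 4.3.3. The filter kept probes detected (p under 0.05) on 3 or more of the 9 arrays (20573 of 45281). A linear model with the 3 groups was fitted, with empirical Bayes moderation and Benjamini-Hochberg adjustment at 0.05. Where a group was detected on no array, a fold is given as a bound against the dimmest detected probe of each array. The script was tested on simulated data. Summed marker intensities are sums of normalised intensities over the leading probes of a list.

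Pairing was checked because the methods state 3 animals. Deviations from the group means correlated at 0.35, 0.34 and 0.47 within the pairs 1, 8 and 29 with 30, and at -0.39 to 0.03 otherwise, and the shared numbers 1, 8 and (in the column names) 29 name the pairs. The methods describe replicates of culture work as independent cell isolations. The number of arrays limits the precision.

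Alternatives were no background correction, an offset of 50, median scaling, cyclic loess, other probe filters, the 2 groups alone, array weights, replicate blocks, gene means and leaving out each array. The genes named are the 9 listed genes, up to 4 called genes per pathway list and comparison, ligands, and the 3 most similar genes. Hhat, Evc2, Arrb1, Arrb2, Adrbk1, Ift20, Ift140, Arl13b, Bcl2, Sfrp1 and Pthlh were added after their values were seen. The members and lists were chosen with earlier results of these data known. Tests of the pathway lists under other scalings, with replicate blocks and without each array were added after the values were seen. Promoter stretches are from RefSeq (GRCm38.p6). Figures were drawn with matplotlib.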

Additional observations from a re-analysis of the deposited data

How the results depend on the processing

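Over the 20 or 21 alternatives run for each listed gene, Smo and Gli2 kept their direction and their calls against WT1-negative cells in every one, at 1.52 to 2.50 (Smo) and 0.93 to 2.38 (Gli2) for WT1-high and at 1.11 to 2.02 and 0.88 to 2.24 for WT1-intermediate. Gli3 did so for WT1-high at 0.69 to 1.4, and for WT1-intermediate except under median scaling. No Hedgehog gene was called between WT1-high and WT1-intermediate under any alternative, with the lowest adjusted p at 0.071 (Smo, median scaling). The count of Hedgehog genes called in WT1-high against WT1-negative cells was 5 under cyclic loess and 5 with array weights. Without each array in turn it was 3 to 4, the count for WT1-intermediate against WT1-negative was 3 to 3, and that between the groups from liver was 0 to 0.

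Small differences changed sign without a call. Sufu in WT1-intermediate against WT1-negative was 0.231 under cyclic loess, 0.0183 with array weights, 0.0537 without WT1-intermediate replicate 1 and 0.0641 without WT1-negative replicate 3, and ran from -0.152 to 0.0641 without each array. Between the groups from liver, Ptch1 ran from -0.0152 (without WT1-high replicate 1) to 0.363 without each array, and Gli2 from -0.023 (without WT1-intermediate replicate 1) to 0.206.

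Of all probes, 730 were called between the groups from liver, and 473 without background correction, 2164 under median scaling, 335 without a filter, 339 with these groups alone in the fit, and 330 to 868 without each array (330 and 371 on leaving out WT1-high replicate 8 or 29, 333 for WT1-intermediate replicate 1 and 454 for WT1-negative replicate 14). A paired fit gave 1752 (random replicate block by label numbers), 1796 (by column numbers) or 1520 (fixed replicate block). The block changed no call of the 9 Hedgehog genes. Among the other pathway genes against WT1-negative cells, the block by label numbers lost Ccnd1 (WT1-high, adjusted p = 0.052, limma) and Bbs4 (WT1-intermediate, 0.060), and the block by column numbers lost none. Against WT1-negative cells, requiring detection on all 9 arrays left 12749 probes to test, and 7970 (WT1-high) and 7716 (WT1-intermediate) were called, beside 12258 and 11935. Without each array these ran from 10619 to 12429 and from 10270 to 12056. A block by slide was not run, since the headers used here give no slide.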
